A study of Homo sapiens with 7 samples.

Results

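HCT116 cells, a human colorectal carcinoma line, were compared after long and short exposure to the topoisomerase I poison camptothecin (CPT). The late group was 2 arrays, 15 h and 20 h in 10 µM CPT, and the early group was 3 arrays, 1 h, 2 h and 4 h in 10 µM CPT. These 5 of the 7 arrays of the series were chosen by the drug and the hours in their labels, not by a measured value. The other 2 arrays came from cells kept in 0.1% DMSO, the vehicle, for 4 h and for 20 h, and served to show what time in culture did without the drug. The ExonHit Human Splice Array, on which total RNA was measured, carries separate probe sets for parts of a gene. Each time point was 1 array, so that the spread within a group holds both time and array differences.

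Topoisomerase I cuts and reseals 1 DNA strand to release the twist that builds up ahead of RNA polymerase II and of replication forks. CPT holds the enzyme on the cut DNA, which stops elongating polymerases and turns into double-strand breaks where forks collide with it. Damaged cells can switch on arrest and death genes, and mitotic genes are shut off through the DREAM repressor complex, which binds CHR motifs in their promoters, often beside CCAAT boxes bound by the activator NF-Y. HEXIM1, the inhibitor of the elongation kinase P-TEFb, and genes of the immediate early class are known to respond to agents that block transcription.

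The value of a gene was the median log2 value of its probe sets, and a difference of 1 on that scale is 2-fold. Of 18799 genes tested, 6829 (36.3%) were higher and 3337 (17.8%) lower late than early at a limma adjusted p below 0.05, 54.1% in all. Every late array lay above every early array in 51.9% of genes and below in 22.3%. The lower genes moved farther. Over 2-fold changes made up 58.3% of the lower genes and 11.3% of the higher ones, and changes over 4-fold made up 12.4% and 0.527%. The median difference was 0.34 over all genes, 0.66 over those higher and -1.12 over those lower. With each array centred on its median gene value the counts became 2146 higher and 4027 lower, so that 34.8% of calls were upward in place of 67.2%. The direction of small differences therefore depends on how arrays are scaled. Fewer genes passed upward with an array left out, 3075 without 15 h, 3030 without 20 h and 4512 without 2 h.

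The late arrays stood apart from all others. Gene values of the DMSO and early CPT arrays correlated between 0.944 and 0.967 over 10 pairs, and the late arrays correlated with them between 0.705 and 0.824 but with each other at 0.954. Their gene values were also compressed, with an interquartile range of 1.02 at 15 h and 1.03 at 20 h, against 1.22 to 1.45 on the other arrays, and with medians of 4.59 and 4.55 against 4.25 to 4.39. Of the epithelial markers of the line, the adhesion protein EPCAM lay between 7.56 and 8.22 and the keratin KRT18 between 7.17 and 8.36 on every array, both chosen for being bright, while the median over the 13 measured markers, 4.05 to 4.90, was about that of any gene. Their summed level was 66.8 to 69.0. KRT19 fell late (-1.07 ± 0.19, adjusted p = 0.0022), and CLDN3 (0.77 ± 0.18) and VIL1 (0.66 ± 0.17) rose. Of 32 measured markers of leukocytes, endothelium and fibroblasts, cell types absent from such a culture, 25 (78.1%, against 36.3% of all genes) were higher late and none lower. Their median levels were 3.71 to 4.00 early and 4.21 to 5.01 late, so that late values were near the array medians of 4.59 and 4.55. Leukocyte markers led with 11 of 11 higher, a median difference of 0.63 and a summed level of 49.5 to 52.6 early and 57.0 to 58.4 late. The endothelial sum was 37.1 to 38.0 early and 42.2 to 43.6 late, with 8 of 10 markers higher. The fibroblast sum was 40.8 to 42.8 early and 46.2 to 48.3 late, with 6 of 11 higher. Only 2 of the 32, or 6.25%, were over 2-fold higher, CD14 by 1.27 ± 0.24 (SE) and THY1, chosen after its values were seen, by 1.13 ± 0.50 (adjusted p = 0.0765). Without the 20 h array 1 leukocyte marker passed, without the 15 h array 4, without 2 h 4 and without 1 h 5. The endothelial count fell to 2 without 15 h, 3 without 20 h and 5 without 1 h or 4 h, and the fibroblast count to 1 without 15 h and 4 without 20 h. With arrays centred on their median gene, 1 leukocyte, 2 endothelial and 3 fibroblast markers were higher. The part of this upward shift in the increases below was not tested, and 2-fold counts are given for the pathway lists beside the calls. Over all genes 4.15% were over 2-fold higher and 10.4% over 2-fold lower, while DMSO at 20 h against 4 h, single arrays, gave 1.18% and 0.606%.

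**Figure D1:**
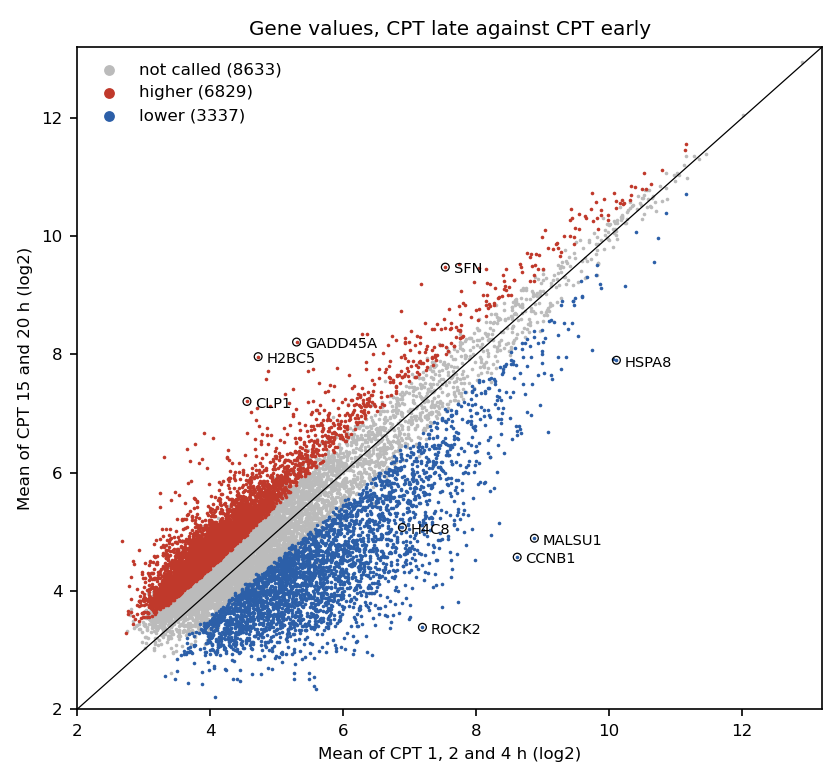
Mean log2 gene value on the 3 early CPT arrays (x axis) against that on the 2 late CPT arrays (y axis), 1 point per gene, coloured by the limma call. Bright genes spread mainly below the diagonal, with CCNB1 at the lower edge, while the dim genes sit slightly above it and H2BC5 and GADD45A stand out on the upper side.

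The mitotic programme was the gene group with the largest drop. Of 41 measured mitosis genes 34 (82.9%, against 17.8% of all genes) were lower late than early and 1 was higher. Their median difference was -1.86, 32 of them were over 2-fold lower, and the count of 34 was the same whichever array was left out. The list is bright, with a median level of 5.99 and a median gene length of 28496 bp. Among genes in the brightest of 5 equal groups by level and the third by length, 50.3% were lower. By role, 11 of 11 spindle and cytokinesis genes fell, 12 of 15 checkpoint and kinetochore genes, 7 of 9 mitotic entry genes and 4 of 6 mitotic exit genes. The 1 increase was FZR1, chosen after its values were seen, the APC/C activator that keeps cyclins low in G1, at 0.63 ± 0.15, a call that was lost without the 15 h array. In bulk RNA, fewer cells in mitosis or G2 and less of these transcripts per cell cannot be told apart.

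CCNB1, the cyclin that starts mitosis with CDK1, changed most of all named genes. Its values were 8.98 and 8.42 in DMSO at 4 and 20 h, 8.80, 8.54 and 8.51 at 1, 2 and 4 h of CPT, and 4.59 and 4.55 at 15 and 20 h. The early and late arrays did not overlap, and the difference was -4.05 ± 0.21 (SE, n = 3 early and 2 late arrays, limma adjusted p = 1.4e-05). CDK1, chosen after its values were seen, read 5.04, 5.01 and 5.16 early and 3.56 and 3.20 late. NDC80, which attaches kinetochores to spindle microtubules, stood at 6.68, 6.25 and 6.16 early and 3.01 and 2.92 late. Its late values lay at the floor of 2.95. The kinetochore protein CENPF read 7.64, 7.63 and 7.57 early and 4.28 and 4.17 late, and BUB1B, the checkpoint kinase that holds cells in metaphase, 7.33, 6.93 and 6.76 early and 4.00 and 3.54 late. In all 3 both DMSO arrays lay far above the late CPT arrays.

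Promoters of these genes are shown because CHR and CCAAT motifs are known from cell cycle genes and can be read in them. The sequences are from RefSeq, build GRCh38.p14, run from 150 bases before to 10 after the annotated start, and carry in capitals each CCAAT box and each CHR, searched as TTTGAA or TTTAAA, on either strand.
CCNB1 (chr5:69167000-69167159, plus strand): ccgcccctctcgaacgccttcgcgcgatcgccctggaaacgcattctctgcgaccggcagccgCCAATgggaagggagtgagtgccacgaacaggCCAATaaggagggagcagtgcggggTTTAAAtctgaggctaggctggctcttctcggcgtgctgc
NDC80 (chr18:2571407-2571566, plus strand): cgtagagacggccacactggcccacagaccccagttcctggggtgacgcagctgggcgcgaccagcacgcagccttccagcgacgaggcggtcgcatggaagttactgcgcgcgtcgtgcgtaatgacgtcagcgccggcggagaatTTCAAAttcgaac
CENPF (chr1:214603045-214603204, plus strand): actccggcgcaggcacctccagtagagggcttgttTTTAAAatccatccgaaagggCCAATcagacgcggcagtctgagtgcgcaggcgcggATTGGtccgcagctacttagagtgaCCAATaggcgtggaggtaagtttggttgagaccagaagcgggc
BUB1B (chr15:40160919-40161078, plus strand): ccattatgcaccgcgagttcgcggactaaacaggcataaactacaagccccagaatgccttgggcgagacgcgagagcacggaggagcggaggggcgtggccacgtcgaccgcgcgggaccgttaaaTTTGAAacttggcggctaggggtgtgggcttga
CCNB1 held 2 CCAAT boxes and 1 CHR, and CENPF held 3 CCAAT boxes and 1 CHR in the printed stretch. NDC80 and BUB1B each held 1 CHR and no CCAAT there. Over the full window of 250 bases before to 50 after the start, 34 mitosis genes had a promoter in the table. Of these, 25 (73.5%) had a CCAAT and 29 (85.3%) a CHR, and 22 (64.7%) had both, against 35.7%, 24.3% and 9.49% of all 27305 promoters. Among the 12827 promoters of tested named genes, the shares were 36.5%, 17.9% and 7.21%. Of the promoters of all named genes lower late than early, 37.2%, 18.7% and 8.25% held them, and of the genes higher, 35.8%, 17.3% and 6.67%.  These motifs are short, do not overlap each other, and a match is not evidence of binding.

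Replication and repair genes fell less far. Of 40 replication genes 23 (57.5%, against 17.8% of all genes) were lower and 3 (7.5%, against 36.3%) higher, with a median of -0.74. Over 2-fold decreases made up 17 (42.5%, against 10.4%). The list is bright, with a median level of 5.54, and 39.4% of the brightest of 5 equal groups of genes were lower. The group held origin and loading factors, 9 of 15 lower, genes of helicase activation, 4 of 7, and DNA synthesis genes, 10 of 14. The 4 nucleotide supply genes all missed the threshold, with a median of -0.18. ORC2, of the origin recognition complex, read 6.23, 6.22 and 6.11 early and 3.67 and 4.05 late. ORC4 of the same complex differed by -2.18 ± 0.18, RFC1, the large subunit of the clamp loader, by -2.07 ± 0.19, and GINS1 of the replicative helicase by -2.07 ± 0.22. PCNA, the sliding clamp, chosen after its values were seen, read 6.97, 7.01 and 7.46 early and 5.36 and 5.6 late. The median of the list was -0.60 at 15 h and -0.87 at 20 h, relative to the early mean. The 3 increases became 1 without the 1 h or the 2 h array and 0 without 20 h.

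Of 39 damage signalling and repair genes 23 (59%, against 17.8% of all genes) were lower and 3 (7.69%, against 36.3%) higher. The median was -0.68, and 15 (38.5%, against 10.4%) were over 2-fold lower. The list had a median level of 5.08 and a median gene length of 61704 bp. Among genes in the fourth of 5 equal groups by both level and length, 50.9% were lower. Among the signalling kinases and mediators 11 of 12 fell, and of the genes for double-strand break repair 5 of 12 fell and 3 rose. XRCC4, which joins broken ends with ligase IV, read 7.04, 6.52 and 6.92 early and 4.14 and 3.85 late. LIG4, the ligase it works with, went the other way, at 3.41, 3.62 and 4.86 early and 5.36 and 5.51 late, a difference of 1.47 ± 0.35, and was chosen after its values were seen. RAD50 and NBN, subunits of the complex that senses double-strand breaks, differed by -2.10 ± 0.21 and -1.82 ± 0.23. The count of 3 increases was 1 without the 1 h, 2 h or 20 h array. Of the genes that handle topoisomerase lesions 5 of 6 fell, TOP2A the most, from 6.91, 6.83 and 7.04 early to 4.71 and 4.27 late.

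TOP1, the drug target, changed little beside these. It read 7.78, 7.77 and 7.90 early, 7.47 at 15 h and 6.93 at 20 h, with DMSO at 7.90 and 7.78. The difference was -0.62 ± 0.20 (limma adjusted p = 0.024). It missed the threshold without the 2 h, 4 h or 20 h array, with adjusted p values of 0.0533, 0.0559 and 0.194, and differed by -0.35 without 20 h. After quantile re-normalization it read -0.45, with an adjusted p of 0.0649. TDP1, which removes trapped topoisomerase I from DNA ends, did not pass (-0.47 ± 0.22, adjusted p = 0.089). Without the 20 h array, which lay within the early range at 4.55, TDP1 passed at -0.78.

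**Figure D2:**
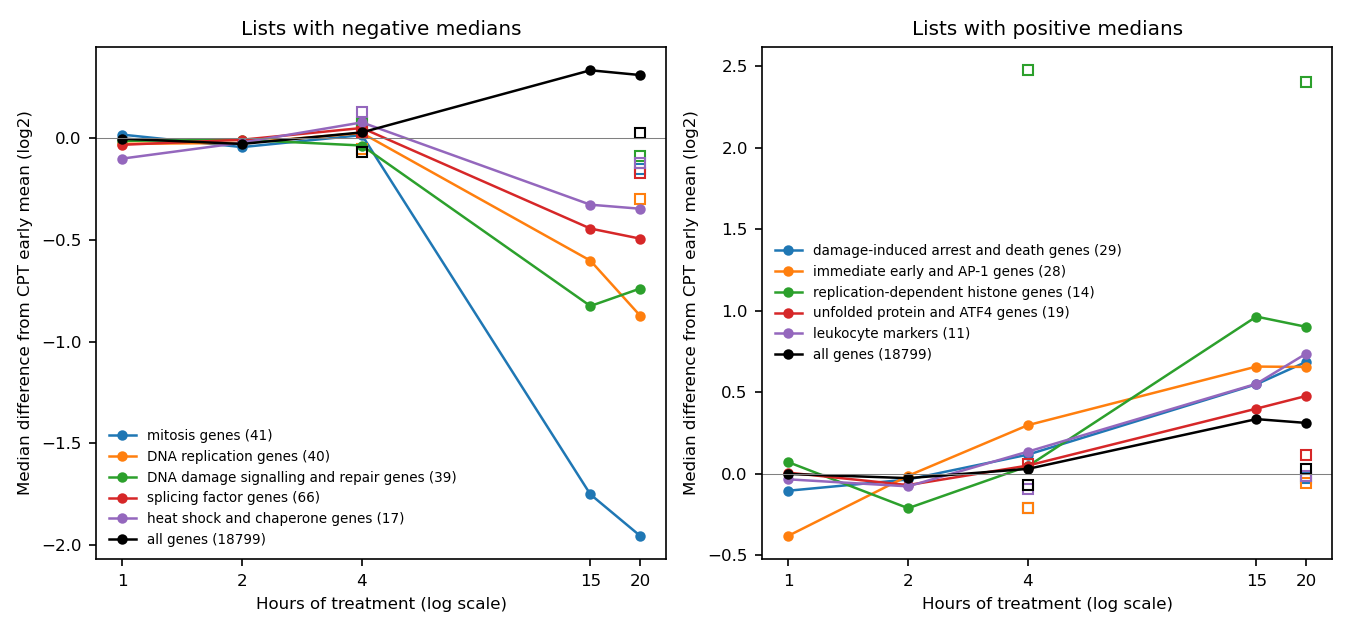
Median log2 value of selected gene lists and of all genes on each of the 7 arrays. Values are relative to the mean of the 3 early CPT arrays, with hours of treatment along the x axis. Lists are split into panels by the sign of their median difference. Mitosis genes lay between -0.04 and 0.02 up to 4 h of CPT and at -1.75 and -1.95 at 15 and 20 h, while histone genes lay at 2.47 and 2.40 in DMSO and at 0.96 and 0.90 late in CPT.

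Arrest and death genes that DNA damage is known to induce moved mainly upward. Of 29 measured members of this list 17 (58.6%, against 36.3% of all genes) were higher and 1 lower, and 10 (34.5%, against 4.15%) were over 2-fold higher. The median difference was 0.70. By assigned role, arrest genes led, with 8 of 9 higher and a median of 1.71. Of 11 genes assigned to death 8 rose, with a median of 0.70. These roles are broad, since arrest held SESN1 and TP53INP1, and death held the apoptosis inhibitor TRIAP1. Of 9 feedback and repair genes 1 rose and 1 fell. GADD45A, which slows the cycle at G2, read 4.88, 5.29 and 5.72 early and 8.0 and 8.42 late, with DMSO at 4.81 and 5.27. The late arrays lay clear of all others, and the difference was 2.91 ± 0.27 (adjusted p = 5.6e-05). SFN, the 14-3-3 sigma protein that keeps CDK1 with cyclin B out of the nucleus, read 7.41, 7.66 and 7.53 early and 9.44 and 9.52 late. TRIAP1, a small inhibitor of apoptosis, differed by 1.89 ± 0.26. CDKN1A, the inhibitor p21 that holds cells in G1, read 5.45, 5.27 and 5.69 early and 7.08 and 7.33 late, a difference of 1.73 ± 0.22.

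The pro-death members PMAIP1 and BBC3, BH3-only proteins chosen after their values were seen, differed by 1.65 ± 0.22 and 1.18 ± 0.26. The single member of the list that fell was MDM2, a ubiquitin ligase. MDM2 read 7.39 and 7.59 in DMSO, 7.64, 8.05 and 7.94 at 1, 2 and 4 h, and 6.52 and 6.47 at 15 and 20 h. It differed by -1.39 ± 0.19 (adjusted p = 0.00045), and the late arrays lay below DMSO as well. FAS, the death receptor, also chosen after its values were seen, did not pass, at -0.34 ± 0.24. Whichever array was left out, 13 to 17 damage-induced arrest and death genes were higher, as were 13 with arrays centred, and a further decrease appeared without the 2 h or the 20 h array.

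Apoptosis genes outside that list split in both directions. Of 24 members 8 were higher and 6 lower, shares of 33.3% and 25% that lie beside 36.3% and 17.8% of all genes, and 3 were over 2-fold lower and none over 2-fold higher. Effectors and BH3-only genes held 5 of the increases, and death receptors 3 of the decreases. BCL2L1, which guards the mitochondrial membrane, read 6.59, 6.76 and 6.03 early and 4.69 and 4.85 late. In DMSO it also went down, from 6.54 at 4 h to 5.54 at 20 h, and with that subtracted its difference of -1.69 became -0.69 (adjusted p = 0.41). TNFRSF21 and TNFRSF1A, receptors with death domains, differed by -1.49 ± 0.19 and -1.43 ± 0.24, and CASP8, the caspase those receptors activate, by -0.95 ± 0.18. The 8 increases fell to 5 without 2 h, 4 without 4 h, 4 without 15 h and 2 without 20 h, and to 2 with arrays centred.

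Among immediate early and AP-1 genes 13 of 28 (46.4%, against 36.3% of all genes) were higher and none was lower, with a median of 0.71. The share called was near that of all genes, while 9 (32.1%, against 4.15%) were over 2-fold higher. ATF3, a stress-induced repressor of the CREB family, rose step by step. It read 3.92 at 1 h, 4.81 at 2 h, 5.36 at 4 h, 6.90 at 15 h and 7.28 at 20 h, a late minus early difference of 2.39 ± 0.37. EGR2, IER3 and SIK1 differed by 1.62 ± 0.40, 1.48 ± 0.41 and 1.32 ± 0.17. EGR2, a zinc finger factor, had moved by 4 h, with 3.02, 3.11 and 4.58 early and 4.97 and 5.42 late. FOS read 4.00, 4.47 and 5.10 early and 5.04 and 5.00 late, so the late arrays matched the 4 h one, and it did not pass (0.50 ± 0.31, adjusted p = 0.18). Without the 4 h array it did, at 0.79. Without the 20 h array 5 of the 28 were higher, as were 5 with arrays centred, and EGR2 and IER3 missed the threshold at 1.39 and 0.95. MYC, a driver of growth genes, showed a dip with no net difference, at 7.44, 5.68 and 6.63 early and 6.39 and 6.85 late (0.04 ± 0.42, adjusted p = 0.95), all 5 below the DMSO values of 8.07 and 7.48.

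**Figure D3:**
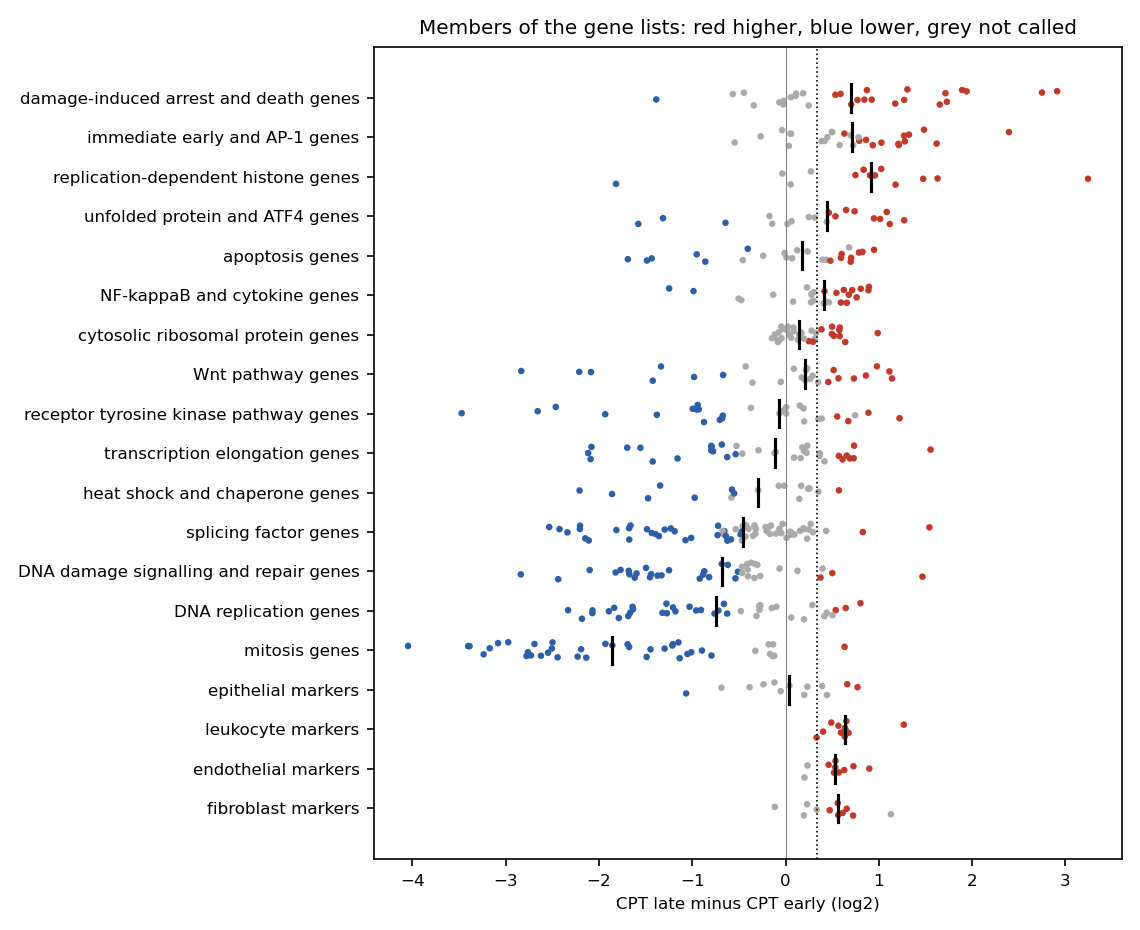
Late minus early difference in log2 for every measured member of the gene lists, 1 row of points per list, with higher members in red, lower in blue, those not called in grey and a bar at the median. The points of the mitosis list lie mostly left of -1, with a median of -1.86, and those of the damage-induced arrest and death genes mostly right of 0, with a median of 0.70.

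Of 36 transcription elongation genes 14 (38.9%, against 17.8% of all genes) were lower and 7 (19.4%, against 36.3%) higher. Over 2-fold, 7 were lower and 1 was higher. The list is bright, with a median level of 5.59, and its share lower was close to the 39.4% of the brightest of 5 equal groups of genes. HEXIM1 climbed through the course, from 5.97 at 1 h to 6.31, 7.08, 7.83 and 8.19 at 2, 4, 15 and 20 h, with DMSO at 6.05 and 6.26. Its difference was 1.55 ± 0.30 (adjusted p = 0.0029). It was 1.35 with the DMSO 20 h minus 4 h difference subtracted and 0.93 with 4 h as the only early array. HEXIM1 missed the threshold in both settings. Kinases of the polymerase tail and their partners fell in 4 of 5 measured genes, with CDK7, which acts at the start of genes, at -2.09 ± 0.26 and its assembly factor MNAT1 at -2.08 ± 0.20. POLR2B, the second-largest subunit of RNA polymerase II, read 6.72, 7.05 and 7.09 early and 4.86 and 4.81 late. CTR9, a subunit of the PAF elongation complex, differed by -1.70 ± 0.18. Without the 20 h array 3 members were higher and 6 lower, and with arrays centred 2 were higher and 16 lower.

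Of 66 splicing factor genes 28 (42.4%, against 17.8% of all genes) were lower and 2 (3.03%, against 36.3%) higher, with a median of -0.46, and 20 (30.3%, against 10.4%) were over 2-fold lower. The list is bright, with a median level of 6.98, and 39.4% of the brightest of 5 equal groups of genes were lower, about the same share. Among SR proteins and their kinases 7 of 18 fell and 2 rose, among hnRNP and RBM genes 10 of 20 fell, and among core spliceosome genes 11 of 28. MBNL1 and MBNL2, which steer alternative exons, differed by -2.53 ± 0.28 and -2.34 ± 0.22. RBM6 read 6.64, 6.38 and 6.0 early and 3.86 and 3.97 late, and RBM25 7.70, 7.62 and 7.30 early and 5.12 and 5.55 late. CLK1, a kinase that phosphorylates SR proteins, chosen after its values were seen, read 4.71, 4.00 and 4.36 early, lower than DMSO at 5.80 and 5.15, and 5.74 and 6.06 late. Without the 20 h array 1 splicing gene was higher.

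Replication-dependent histone genes had their own pattern. Only 14 of the 30 listed were measured above the filter, and no H3 gene was. The test called 10 of the 14 (71.4%, against 36.3% of all genes) higher and 1 lower, and the median difference was 0.91. Over 2-fold increases made up 5 (35.7%, against 4.15%), and 1 gene was over 2-fold lower. In the list median, DMSO lay far above both. Relative to the early mean its median was 2.47 and 2.40 in DMSO, 0.96 at 15 h and 0.90 at 20 h. The linker histone gene H1-2, chosen after its values were seen, showed it, with 7.96 and 7.68 in DMSO, 4.53, 4.59 and 4.68 early and 5.58 and 5.54 late. H2AC6, likewise chosen after its values were seen, read 9.88 and 10.09 in DMSO, 6.83, 6.26 and 7.01 early and 7.78 and 7.29 late. Not every gene followed it. The linker histone gene H1-1 read 4.96 and 4.78 in DMSO and 5.76 and 6.02 late. H2BC12 read 4.32 and 3.43 in DMSO and 4.45 and 5.29 late. H2BC5, a histone H2B gene, did not follow it either. It read 5.28 and 5.30 in DMSO, 4.78, 4.32 and 5.06 early and 7.61 and 8.31 late, which was the largest increase among named genes at 3.24 ± 0.27. H4C8, a histone H4 gene, kept dropping, from 9.46 and 9.17 in DMSO to 7.08, 7.03 and 6.56 early and 5.64 and 4.50 late. With no filter on dim probe sets H4C8 turned to 1.61 (adjusted p = 0.00199) and the linker histone H1-1, at 1.63 ± 0.20 with the filter, to -0.04 (adjusted p = 0.894), so neither direction is settled. H2BC12 (1.48 ± 0.44) missed the threshold without 2 h or 20 h. With arrays centred 5 histone genes were higher. These genes are close copies of each other, and probe sets may read more than 1 of them.

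Heat shock and chaperone genes were lower in 7 of 17 members (41.2%, against 17.8% of all genes), 4 of them over 2-fold, and higher in 1, HSPB1, whose call (0.57 ± 0.22, chosen after its values were seen) was lost without any array other than 4 h. This list is bright too, with a median level of 8.09, and its share lower was close to the 39.4% of the brightest genes. HSPA8, the constitutive HSP70, was among the brightest genes and read 10.21, 10.05 and 10.07 early and 7.92 and 7.88 late, with DMSO at 10.31 and 10.08. The spread within each group was far smaller than the difference of -2.21 ± 0.12 (adjusted p = 1.5e-05). Its partner DNAJA1 differed by -1.86 ± 0.21, HSPA4, a nucleotide exchange factor for HSP70, by -1.47 ± 0.21, and the mitochondrial HSPA9 by -1.34 ± 0.16. HSPA4 lost its difference with no filter on dim probe sets, at -0.21.

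Of 19 genes of the unfolded protein response and the ATF4 programme 9 (47.4%) were higher and 3 (15.8%) lower, near the 36.3% and 17.8% of all genes, with 4 over 2-fold higher and 2 over 2-fold lower. ATF6, a sensor in the endoplasmic reticulum, differed by -1.58 ± 0.19, and PSAT1, an enzyme of serine synthesis, by -1.31 ± 0.22. SESN2, which restrains mTORC1, read 3.70, 3.59 and 4.17 early and 5.00 and 5.18 late. DNAJB9, a BiP cochaperone, differed by 1.12 ± 0.19 and by 0.31 with no filter, where it did not pass. Without the 20 h array 4 of the 19 were higher, and with arrays centred 5.

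Cytosolic ribosomal protein genes moved little, with 11 of 33 (33.3%, near the 36.3% of all genes) higher, none lower and none over 2-fold changed. The median was 0.15, below the 0.34 of all genes, and with each array centred 4 were higher and 3 lower. RPS15 moved most, from 8.62, 8.25 and 8.50 early to 9.42 and 9.47 late. RPS2, RPS21 and RPS9 differed by 0.64 ± 0.12, 0.58 ± 0.12 and 0.58 ± 0.11. With no filter RPS2 and RPS21 differed by 0.35 and 0.28 and did not pass. RPS21 also missed the threshold with the mean of its probe sets in place of the median, at 0.095. With only probe sets whose names end in B, F or T it read 0.15 and did not pass. The count was 7 without the 2 h array and 7 without 20 h.

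Among NF-kappaB and cytokine genes 11 of 26 (42.3%, near the 36.3% of all genes) were higher and 2 (7.69%, against 17.8%) lower, and 1 was over 2-fold lower and none over 2-fold higher. Cytokines held 6 of the 11 increases. TNF read 4.10, 4.36 and 4.63 early and 5.39 and 5.12 late, with 4.53 and 4.54 in DMSO, and differed by 0.09 with no filter. CCL2, at 0.89 ± 0.34 with an adjusted p of 0.047, read 2.30, 3.75 and 2.96 early and 4.05 and 3.75 late, so that the groups overlapped. It missed the threshold with any single array left out other than 2 h. NFKB1, the p105 and p50 subunit, went from 4.77, 5.12 and 4.67 early to 3.73 and 3.49 late. BIRC2, an inhibitor of apoptosis, differed by -0.99 ± 0.29 but missed the threshold without 2 h, 15 h or 20 h. Under a stricter filter on dim probe sets BIRC2 read -0.15 and did not pass. It read -0.37 with the DMSO 20 h minus 4 h difference subtracted and -0.39 with 4 h as the only early array. The 11 increases became 6 without 1 h, 5 without 2 h, 2 without 15 h, 6 without 20 h and 1 with arrays centred, and the 2 decreases became 1 without 2 h, 15 h or 20 h and 4 without 4 h.

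In the receptor tyrosine kinase pathway 13 of 29 genes (44.8%, against 17.8% of all genes) were lower and 4 (13.8%, against 36.3%) higher. Over 2-fold, 5 were lower and 1 was higher. The list had a median level of 4.79 and a median gene length of 57493 bp. Of genes in the fourth of 5 equal groups, 27.2% were lower by level and 30.9% by length. Among genes in the fourth group by both, 50.9% were lower, more than in this list. MET, the receptor of hepatocyte growth factor, read 6.96, 7.13 and 6.90 early and 3.97 and 3.08 late, a difference of -3.47 ± 0.28. SOS1, which loads RAS with GTP, read 5.26, 5.2 and 5.34 early and 2.65 and 2.57 late. EREG, an EGFR ligand, differed by -2.46 ± 0.31 and ERRFI1, an EGFR inhibitor, by -1.93 ± 0.28, the latter by -0.02 with no filter. HBEGF, another EGFR ligand, chosen after its values were seen, went from 4.4, 5.36 and 5.41 early to 6.26 and 6.30 late. The 13 decreases were 8 without 15 h or without 20 h.

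The Wnt pathway, active in this line through a mutated beta-catenin, had 7 of 26 genes (26.9%) lower and 8 (30.8%) higher, near the 17.8% and 36.3% of all genes, with 5 over 2-fold lower and 2 over 2-fold higher. The decreases lay in core components, 5 of 11, and receptors. GSK3B and CSNK1A1, kinases that mark beta-catenin for breakdown, differed by -2.83 ± 0.24 and -2.21 ± 0.23, and TCF7L2, the DNA-binding partner of beta-catenin, by -2.09 ± 0.22. The receptor FZD6 differed by -1.42 ± 0.18. Of the 10 target genes 5 were higher and none lower, including ASCL2 at 1.14 ± 0.21 and RNF43 at 1.11 ± 0.15, while AXIN2 did not pass at 0.23 ± 0.15, all 3 chosen after their values were seen. The 8 increases became 5 without 1 h or 2 h and 4 without 15 h or 20 h.

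Outside the lists, the largest decreases among named genes were in regulators of varied function. MALSU1, a factor for assembly of the mitochondrial ribosome, read 8.95, 8.96 and 8.71 early and 4.80 and 4.98 late, a difference of -3.99 ± 0.18. ARHGAP29, a GTPase-activating protein, and ROCK2, a kinase of the actin cytoskeleton, differed by -3.91 ± 0.23 and -3.81 ± 0.25. KITLG, the ligand of KIT, read 7.32, 7.65 and 7.46 early and 3.99 and 3.47 late. TENT4B, a poly(A) polymerase of nuclear RNA surveillance, and its cofactor ZCCHC7 differed by -3.51 ± 0.22 and -3.33 ± 0.23. TLK1 and ASF1A, the kinase and the histone chaperone it phosphorylates, both fell, by 3.45 and 3.27 on the log2 scale. PDCD10, CUL3, the scaffold of a ubiquitin ligase family, and MBD2, which binds methylated DNA, differed by -3.45 ± 0.22, -3.30 ± 0.19 and -3.28 ± 0.23. In all of these the late arrays lay below every early and DMSO array.

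The largest increases among named genes held several that were dim before. DORIP1 read 3.30, 3.03 and 3.58 early and 5.69 and 6.84 late. CLP1, a kinase of RNA ends in tRNA splicing and mRNA 3′ processing, read 4.4, 4.23 and 5.03 early and 7.02 and 7.38 late. FICD, which modifies BiP in the endoplasmic reticulum, differed by 2.50 ± 0.30, and PRDM1, a transcriptional repressor, by 2.41 ± 0.28. ARRDC3, an arrestin-related adaptor, read 4.27, 4.18 and 5.39 early and 6.73 and 7.32 late. CITED2, a CBP/p300 partner, read 5.31, 4.61 and 6.5 early and 7.55 and 7.90 late, so its 4 h array already lay toward the late ones. TBCC, a tubulin folding cofactor, and SBSN, an epidermal protein, were tight within groups at 2.37 ± 0.20 and 2.33 ± 0.17. LRATD2, C6orf52 and ZNF425 differed by 2.85 ± 0.29, 2.75 ± 0.47 and 2.72 ± 0.38, and LRATD2 by 0.17 with no filter on dim probe sets, where it did not pass.

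The 15 h and 20 h arrays read within 0.5 of each other in 91% of the higher and 81.1% of the lower genes, a closeness that the test itself favours, since their spread enters its error. Another 491 lower genes (14.7%) moved on by more than 0.5 at 20 h, EREG among them, and 382 higher genes (5.59%) did, DORIP1 among them. Only 765 higher (11.2%) and 421 lower genes (12.6%) kept 1 direction over all 5 CPT arrays, such as ATF3 and HEXIM1 upward. The 4 h array was the early array nearest to the late ones in 50.7% of higher and 43.3% of lower genes. Time in culture moved some genes the same way. In DMSO, 27.5% of the higher and 14.6% of the lower genes differed between 20 h and 4 h in the same direction by at least 0.5 of the CPT difference, and 23.5% and 26.6% moved the opposite way. DMSO had 1 array at each time, so those values carry no error of their own. Subtracting them took the median difference from 0.66 to 0.48 over the higher genes and from -1.12 to -0.97 over the lower genes. With the DMSO 20 h minus 4 h difference subtracted, 123 genes (0.654%) were higher and 598 (3.18%) lower. Among them were 18 of 41 mitosis genes downward and 4 of 29 damage-induced arrest and death genes upward.

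Decreases were more frequent among bright genes and among long genes. In 5 equal groups by mean level, the median difference was 0.44 in the dimmest and -0.27 in the brightest, and 3.03% and 39.4% of genes fell. In 5 equal groups by gene length, the share that fell was 3.5% among the shortest and 31.6% among the longest. Both together gave the widest range. Among the 343 genes in both the brightest and the longest group 75.8% fell, with a median of -1.29, and among the 764 that were bright and short 9.95% fell and 36.6% rose, with a median of 0.33. Among dim genes, 0.579% of the shortest and 6.24% of the longest fell. Over 15990 named genes the rank correlation of the late minus early difference with gene length was -0.331, and that of DMSO 20 h minus 4 h was -0.0895. Measured against the DMSO mean, it was -0.137 at 1 h, -0.127 at 2 h, -0.279 at 4 h, -0.376 at 15 h and -0.384 at 20 h. These correlations are across genes, which are not independent, and the 5 arrays share the DMSO mean. The floor limits how far a dim gene can be seen to fall. The part of level and length in the shares of the gene lists was not tested.

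**Figure D4:**
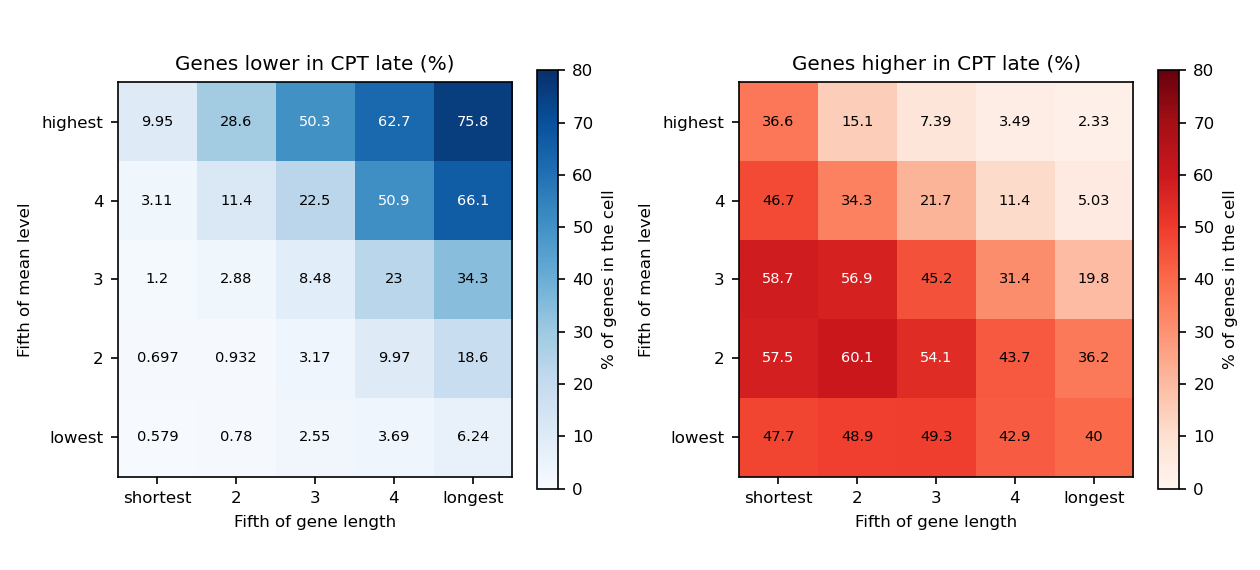
Share of genes lower and share of genes higher late than early, in percent, for genes split into 5 equal groups by mean level and 5 by gene length. The cell of the brightest and longest genes holds 75.8% lower, and that of the brightest and shortest 9.95%.

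Single probe sets were then compared with their own gene. Subtracting the gene's median from each probe set on the log2 scale gave relative values, in which a change common to all probe sets of a gene cancels, except where a dim probe set cannot follow it. Of 1050079 probe sets in 18047 genes, 46877 (4.46%) were relatively higher late than early and 34294 (3.27%) relatively lower. They fell in 10451 genes, of which 6059 held at least 3. The counts rested on single arrays. Without 20 h they were 17399 and 14271, without 1 h 29080 and 20368, and without 2 h 27499 and 18408. The letter that ends each probe set name, whose meaning is not given in the sources used here, separated them. Letters Y and Z were relatively higher in 11.9% and 10.8% and lower in 0.946% and 0.515%. E was higher in 7.29% and lower in 2.31%, B in 5.36% and 2.82%, and F in 3.37% and 1.9%. More often lower than higher were T (1.8% higher, 2.96% lower), C (3.99%, 5.16%), D (3.85%, 5.48%) and X (3.08%, 5.99%). Y and Z probe sets were also dimmer, with mean levels of 4.63 and 4.45. The part of that dimness in their upward shares was not tested.

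The genes with the largest share of changed probe sets were KBTBD3 with 5 of 6 (83.3%), MALSU1 with 16 of 21 (76.2%), GNAI1 with 44 of 59 (74.6%), ABHD17C with 23 of 34 (67.6%) and TSHZ2 with 6 of 9 (66.7%). In GNAI1, a G protein alpha subunit, 15 probe sets were relatively higher and 29 lower. MDM2 was split, with 40 of 128 relatively higher and 32 lower, whereas CCNB1 had 26 of 51 higher and 2 lower. Relative calls ran against the gene's own direction in several named genes. HSPA9 and BCL2L1, which fell, had 26 and 11 probe sets relatively higher and 1 and 0 lower, while RPS15 and ATF3, which rose, had 2 and 0 higher and 25 and 5 lower. Other genes did not show this, such as TRA2B, which fell with 3 probe sets relatively higher and 21 lower, and GNAI1, which also fell. The part of the gene's own change in these counts was not tested. The 10 largest relative changes were all upward and came from PPFIA1, CHAF1A, EIF2S2, CNOT1, WDR43, MED13, RPAP2, SMCHD1 and, with 2 probe sets, ABCF2. The filter of 2.95 was set on the mean over all 7 arrays, late ones included. Both ABCF2 probe sets and that of RPAP2 read below 2.95 on every DMSO and early array. They were therefore kept only through their late values, and their selection was not independent of the late rise.

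The probe sets with the largest relative changes did not only stay level while the gene fell. In PPFIA1, a scaffold protein of cell adhesions, the probe set itself read 2.97, 2.85 and 4.74 early and 8.03 and 8.51 late, with DMSO at 4.35 and 4.94, a relative change of 6.66 ± 0.57. In ABCF2, an ATP-binding cassette protein, 1 probe set read 2.12, 1.55 and 1.96 early and 8.23 and 8.83 late, and the other 2.53, 1.69 and 2.03 early and 8.23 and 9.04 late. Both lay near 2 in DMSO, and their near-equal late values do not count as separate evidence if they read the same stretch of the transcript. In CHAF1A, the large subunit of chromatin assembly factor 1, the probe set read 1.61, 2.33 and 4.33 early and 7.70 and 9.03 late. EIF2S2, a subunit of the translation initiation factor eIF2, had a probe set at 1.52, 2.60 and 3.16 early and 6.2 and 7.97 late. MED13, of the Mediator kinase module, differed from these, since its probe set read 4.55 and 5.96 in DMSO, 1.70, 1.40 and 1.52 early and 5.39 and 4.51 late, so that late values were back near those of DMSO.

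**Figure D5:**
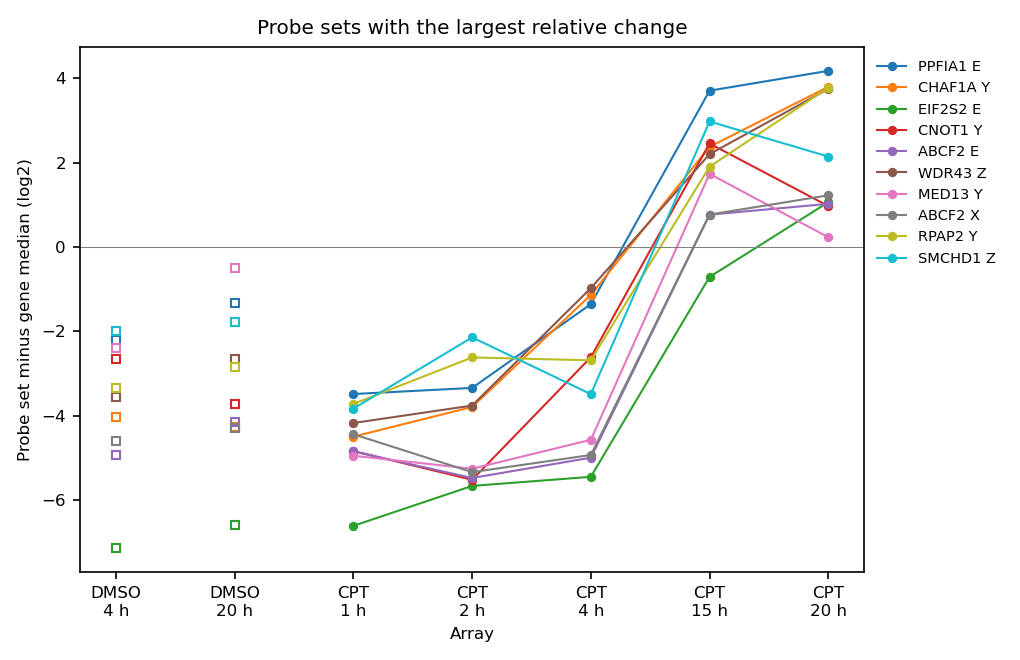
Log2 value relative to the gene median on each of the 7 arrays for the 10 probe sets with the largest late minus early change. The late CPT points lie above the early ones for all 10 probe sets. For MED13 the DMSO points lie between -2.40 and -0.48, above the early CPT points.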

How the data were processed

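Total RNA from HCT116 cells was amplified, labelled with biotin and hybridised to 1 array per time point. The deposited values are log2 values for 2108940 probe sets, which the authors had normalized between arrays. The submitters' processing notes name Partek 6.08, R 2.11.1 and RMA without saying what each did. Not given in the sources used here are the background correction and the build. The log2 scale was inferred from the range of the values.

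Probe sets were assigned to genes by the number that opens their name, matched to the platform annotation and the RefSeq table of GRCh38.p14, where 17280 of 20649 identifiers kept a checked symbol. Probe sets with a mean over 7 arrays above 2.95 were kept, and a gene needed 3 of them (5 for relative values). This left 18799 genes, 15990 of them named. Differences were tested with limma 3.58.1 in R 4.3.3 (lmFit, eBayes with trend) on all 7 arrays in 3 groups, adjusted by Benjamini-Hochberg over all genes or probe sets at a threshold of 0.05, after the test was tried on simulated data. Nothing in the labels says that arrays came from separate cultures, so p-values reflect only how these arrays, from different hours, spread.

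Genes were named by rule: the 15 largest increases and decreases with a symbol among genes that passed and did not overlap, up to 4 members of each of 15 pathway and 4 marker lists with the largest differences that passed, and TOP1, TDP1, CDKN1A, MDM2, ATF3, FOS, MYC, HEXIM1 and CCNB1. For relative values they were the 5 genes with the largest share and the 10 probe sets with the largest change. Some items are not reported here. The comparison, the lists and the genes were chosen with earlier results of these data known. Promoters are from RefSeq, and 34 of 42 mitosis genes matched. Alternatives changed the filter, summary, normalization, centring, moderation, grouping and arrays.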

Additional observations from a re-analysis of the deposited data

Results flagged for a closer look

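The late minus early difference in CPT was set against the 20 h minus 4 h difference in DMSO, in a limma fit that gave each DMSO array its own mean. After adjustment 123 genes (0.654%) had moved further upward in CPT than in DMSO and 598 (3.18%) further downward, and 3988 genes had an unadjusted p below 0.05. Of the 123 genes 116 were also among those higher late than early, and of the 598 genes 584 were among those lower. Downward calls held 18 of 41 mitosis genes, 5 of 40 replication genes, 5 of 66 splicing genes, 4 of 26 Wnt genes and 3 of 39 repair genes. The elongation list held as many as the repair list, and the apoptosis, receptor tyrosine kinase and heat shock lists held fewer. Upward calls held 4 of 29 damage-induced arrest and death genes and 2 of 14 histone genes. They also held a member each of the immediate early, splicing, unfolded protein and fibroblast marker lists. Time in DMSO rests on single arrays at 4 and 20 h, so its own error was taken from the spread within the CPT groups.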

How the results depend on the processing

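The count of higher genes depended on processing far more than the count of lower genes. From 6829, higher genes went to 4488 with no filter on dim probe sets, 2146 with arrays centred, 4516 with probe sets of letters B, F and T, and 123 with the DMSO difference subtracted. Alternatives chosen after seeing the data gave 973 with the 4 h array as the only early one and 1223 among the brightest genes (upper tertile of mean level). From 3337, lower genes went to 598 with the DMSO difference subtracted and 1901 with the 4 h array alone. The share of calls that was upward, 67.2%, became 34.8% centred, 17.1% with DMSO subtracted, 34.9% in the brightest tertile, 33.9% with the 4 h array alone, 53.6% without 15 h and 56.1% without 20 h. The median difference of 0.34 became 0.15 with no filter, 0.10 centred, 0.16 with DMSO subtracted, 0.27 with letters B, F and T, and -0.16 in the brightest tertile. Leaving out each array in turn gave 3030 to 7164 higher genes, 2372 to 3375 lower genes and medians of 0.31 to 0.35. Relative probe sets ranged from 17399 to 44765 higher and from 14271 to 31566 lower, and without the intensity trend were 26499 and 19383. Of the 104 named genes, H4C8 (1.61) and H1-1 (-0.0398) reversed with no filter, and 56 missed the threshold with the DMSO difference subtracted. With a slope over log2 hours no median difference exists. Fewer arrays or genes tested are part of several alternatives by construction, and subtracting single DMSO arrays widens the error. A lower count after that subtraction is therefore not a measure of how far time in culture explains the changes. The cause of the other shifts was not tested. No paired analysis was possible because replicate numbers stand for different hours in each group. Genes near the floor have little room to fall, and 7 arrays limit precision.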
